A study of Mus musculus with 36 samples.

Results

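Genes of glucagon, adrenergic and cAMP signalling were followed in mouse liver, chosen by the rule that a probe other than a control carries 1 of 9 listed gene names in the array files. The genes are Gcgr, Adra1a, Adra1b, Creb1, Crem, Crtc2, Sik1, Nr4a1 and Pde4d. They were read by 27 of the 56605 probes, and they are 9 of 37325 genes on the array. A probe was tested if some group had it well above background in 5 or all of its 6 mice. That held for 21 of the 27 probes, and each of the 9 genes was among the 24251 genes tested. The other 6, of Adra1a, Creb1 and Pde4d, were not.

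RNA came from the livers of 36 male C57Bl/6J mice, in 6 groups of 6, with 1 array per mouse. AAKO mice lack ATGL, the lipase encoded by Pnpla2 that starts triglyceride breakdown, in white adipose tissue, and CTRL mice are their controls. The promoter behind the deletion and the age of the mice are not given in the sources used here, and liver RNA does not check a deletion in fat. Mice of each genotype were fed freely, fasted for 24 h, or fed and given 1 gavage of the beta 3 adrenergic agonist CL316243 (3 mg/kg, in carboxymethyl cellulose) at Zeitgeber time 10. All were killed at Zeitgeber time 16. The fed groups belong to experiment 2 and the others to experiment 1, and in any comparison with fed mice the condition cannot be told apart from the experiment. A gavage is recorded for the CL316243 groups and for no other, so the agonist cannot be told apart from the handling.

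Glucagon acts on hepatocytes through GCGR, a receptor coupled to Gs, and raises cAMP. Catecholamines reach the mouse liver mainly through alpha 1 receptors, coupled to Gq and calcium, and also through beta receptors. cAMP activates protein kinase A, which phosphorylates CREB and inhibits the salt-inducible kinases. Their substrate CRTC2 then enters the nucleus as a CREB coactivator and drives genes of glucose production. CREM isoforms, SIK1 and NR4A1 are themselves induced by CREB, while phosphodiesterases such as PDE4D degrade cAMP. Beta 3 receptors are found mainly on adipocytes, where their stimulation, like fasting, starts the fat breakdown that ATGL carries out.

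Levels are log2 signal after subtraction of each array's own 75th percentile, so that 0 is the brightness of that percentile, and a difference of 1 is a 2-fold difference in signal. Each gene is given by its brightest probe unless another is named. Levels of different probes are not compared with each other, since probes differ in brightness for the same amount of RNA. Differences carry the standard error of 1 limma fit over all 36 arrays, and a gene is called at a Benjamini-Hochberg adjusted p under 0.05 over the 24251 genes. The arrays were washed in 2 batches, each with 3 mice of every group except AAKO given CL316243, which had 4 and 2. In whole liver, fewer cells of a type and less RNA per cell cannot be told apart.

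All 8 hepatocyte markers examined were well above background on every array. Between 33128 and 37200 probes were well above background per array. The first principal component of all genes held 41.9% of the variance. CTRL fasted replicate 2 lay at 81.3 on it, while the other CTRL fasted arrays lay between 16.8 and 29 and AAKO fasted arrays between 103 and 111. AAKO CL316243 replicate 6 had a summed level of 4 muscle markers of 6.4, against −2.21 to −1.35 on the other 35 arrays. Results that moved with these arrays are also given without them. Neutrophil markers were higher in AAKO than in CTRL fasted livers for 4 of 6 genes, beside 21.3% of all genes. Their summed levels were 2.52 to 6.31 against −0.08 to 5.64. Ngp, 1 of the 4, was tested only because of the fasted AAKO arrays. Its place in this count is thus not independent of its being high there. In CL316243-treated livers 0 of 6 neutrophil markers passed, beside 24.7% of all genes. The summed levels were 1.13 to 2.89 in AAKO against −0.49 to 1.91 in CTRL. Endothelial markers were higher in AAKO for 3 of 6 genes with fasting and 2 of 6 with CL316243, beside 21.3% and 13.4% of all genes. Of 5 adipocyte markers, 1 was higher in AAKO than in CTRL fasted livers (Plin1) and 2 were lower (Adipoq and Cidec). Of all genes, 21.3% were higher and 28% lower. Adipoq was tested only because of the fasted CTRL arrays, so its place in this count is not independent of its being high there. After CL316243 Cidec alone was lower, beside 11.3% of all genes. The summed levels, 4.12 to 7.16 in fasted CTRL, 2.86 to 5.17 in fasted AAKO, 1.2 to 3.25 in CL316243-treated CTRL and 0.14 to 0.66 in CL316243-treated AAKO livers, were carried by Cidec, a lipid droplet protein gene whose group means ran from −1.3 to 5.84. Adipoq, a defining marker of fat cells, lay between −5.86 and −4.82 in the means of the 6 groups. The part of these cells in the results was not tested.

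The promoter table from RefSeq (GRCm38.p6) held 5 of the 9 genes: Gcgr, Adra1b, Creb1, Nr4a1 and Pde4d. CREB binds the palindrome TGACGTCA and the shorter motif TGACG within it, and both strands of the 250 bases before and 50 bases after each start were searched. A palindrome counts for the short motif too. TGACG occurred in 20.8% of 32851 promoters and TGACGTCA in 1.79%. The Nr4a1 promoter held 4 short motifs, a number reached by 0.231% of promoters. They begin 233, 213, 69 and 40 bases before the start. All lie on the reverse strand, so that the plus strand shown reads CGTCA at each. The promoters of Gcgr, Adra1b (2 in the table), Creb1 and Pde4d held neither motif in this window. The stretch of the Nr4a1 promoter with these motifs in capitals is shown because none of the other promoters searched held one. It spans chr15:101266596-101266833 on the plus strand, ending 13 bases before the start.
Nr4a1 promoter: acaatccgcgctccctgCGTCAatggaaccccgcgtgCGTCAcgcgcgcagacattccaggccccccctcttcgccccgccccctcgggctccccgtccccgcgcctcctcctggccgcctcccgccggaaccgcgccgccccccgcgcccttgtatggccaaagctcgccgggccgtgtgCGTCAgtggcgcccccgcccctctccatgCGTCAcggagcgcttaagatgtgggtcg

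A pair of Pde4d probes is shown because they gave different answers on the fasted arrays. Their positions are on mm9, plus strand. Probe 3 lies in 1 block at chr13:110741493-110741552, downstream of probe 4, and its last 3 bases, in capitals, are a stop codon in a reading frame that is otherwise open. Probe 4 lies upstream, at chr13:110530748-110547805. Its 60 bases span 17058 bases of genome, so it is split between exons, and 1 of its frames is open throughout.
Pde4d probe 3: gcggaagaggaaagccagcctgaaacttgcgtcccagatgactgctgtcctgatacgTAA
Pde4d probe 4: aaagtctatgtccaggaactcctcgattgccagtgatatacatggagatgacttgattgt

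The genotypes were compared first, within each condition. In fed mice 0 of the 9 genes were called by limma (2 at an unadjusted p under 0.05), where 0.0783% of all tested genes were, 0.0412% higher and 0.0371% lower in AAKO. That is 19 genes, with 1644 at an unadjusted p under 0.05. In fasted mice 6 of 9 were called, against 49.3% of all genes: 3 were higher in AAKO (Crem, Crtc2 and Sik1; 21.3% of all genes) and 3 lower (Gcgr, Adra1a and Adra1b; 28% of all genes). After CL316243 6 of 9 were called, against 24.7% of all genes. Crem, Crtc2, Sik1 and Nr4a1 were higher in AAKO (13.4% of all genes), and Adra1b and Pde4d lower (11.3%). With 9 genes and a background this high, the count in fasted mice is not a result about this set.

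**Figure D1:**
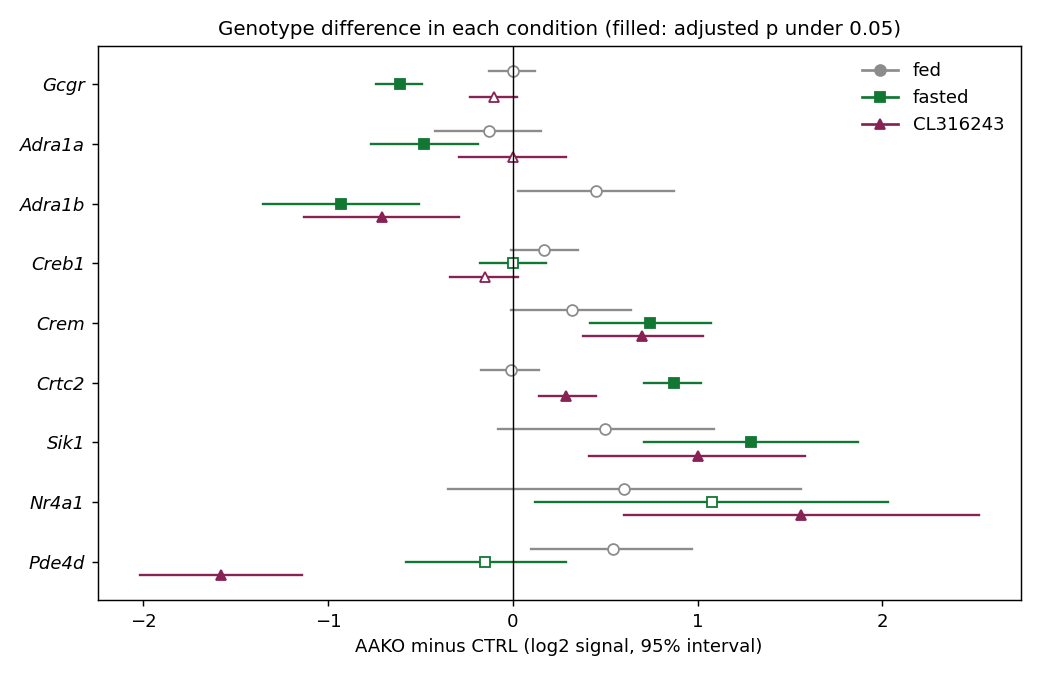
Difference between AAKO and CTRL mice in log2 signal for each of the 9 genes (rows) when fed (circles), fasted (squares) and after CL316243 (triangles), with 95% intervals from the limma fit over 36 arrays and filled symbols for adjusted p under 0.05. No fed symbol is filled. In fasted livers the narrow intervals of Gcgr (−0.74 to −0.49) and Crtc2 (0.71 to 1.02) lie away from 0. Pde4d is lowest after CL316243 at −1.58.

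Differences between conditions were then taken within each genotype. Against fed livers, a rise, fall or response named below is also a difference between experiments. With fasting against fed, 6 of 9 genes were called in CTRL beside 43.3% of all genes, 3 higher (20.9%) and 3 lower (22.4%). In AAKO 7 were called beside 63.5%, 4 higher (27.8%) and 3 lower (35.7%). With CL316243 against fed, 2 were called in CTRL beside 23.3% of all genes, Crem and Pde4d, both higher (10.4%, with 12.8% lower). In AAKO 4 were called beside 31.4%, Crem and Crtc2 higher (15.7%) and Adra1b and Creb1 lower (15.7%). These contrasts share the fed mice of a genotype. Markers of other cells moved with them. Kupffer cell or macrophage markers were lower than in fed livers after CL316243 for 5 of 6 genes in CTRL and 6 of 6 in AAKO, and with fasting for 3 and 4 of 6. Their summed levels were 4.62 to 5.79 in fed CTRL and 5.33 to 6.06 in fed AAKO, against 3.52 to 5.01 and 4.44 to 5 after CL316243 and 4.15 to 5.59 and 3.61 to 5.81 with fasting. Endothelial markers were lower after CL316243 for 5 of 6 genes in CTRL (summed levels 4.98 to 5.56 when fed and 4.02 to 4.94 after CL316243) and for 3 of 6 in AAKO (5.27 to 5.55 and 4.6 to 5.19). Their part in the differences between conditions was not tested.

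Fasted and CL316243-treated mice belong to the same experiment. They differed for 5 genes in CTRL beside 36.8% of all genes, 2 higher when fasted (19.2%) and 3 lower (17.6%). In AAKO they differed for 7 beside 59.9%, 3 higher (26.2%) and 4 lower (33.8%). The difference between genotypes in response was tested too, where an effect of experiment common to both cancels. For fasting against fed it called 3 genes beside 33.9% of all genes (14.5% above and 19.4% below 0). For CL316243 against fed it called 2 beside 10.9% (6.34% above and 4.52% below 0), and for fasting against CL316243 3 beside 32.3% (12.7% above and 19.6% below 0).

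**Figure D2:**
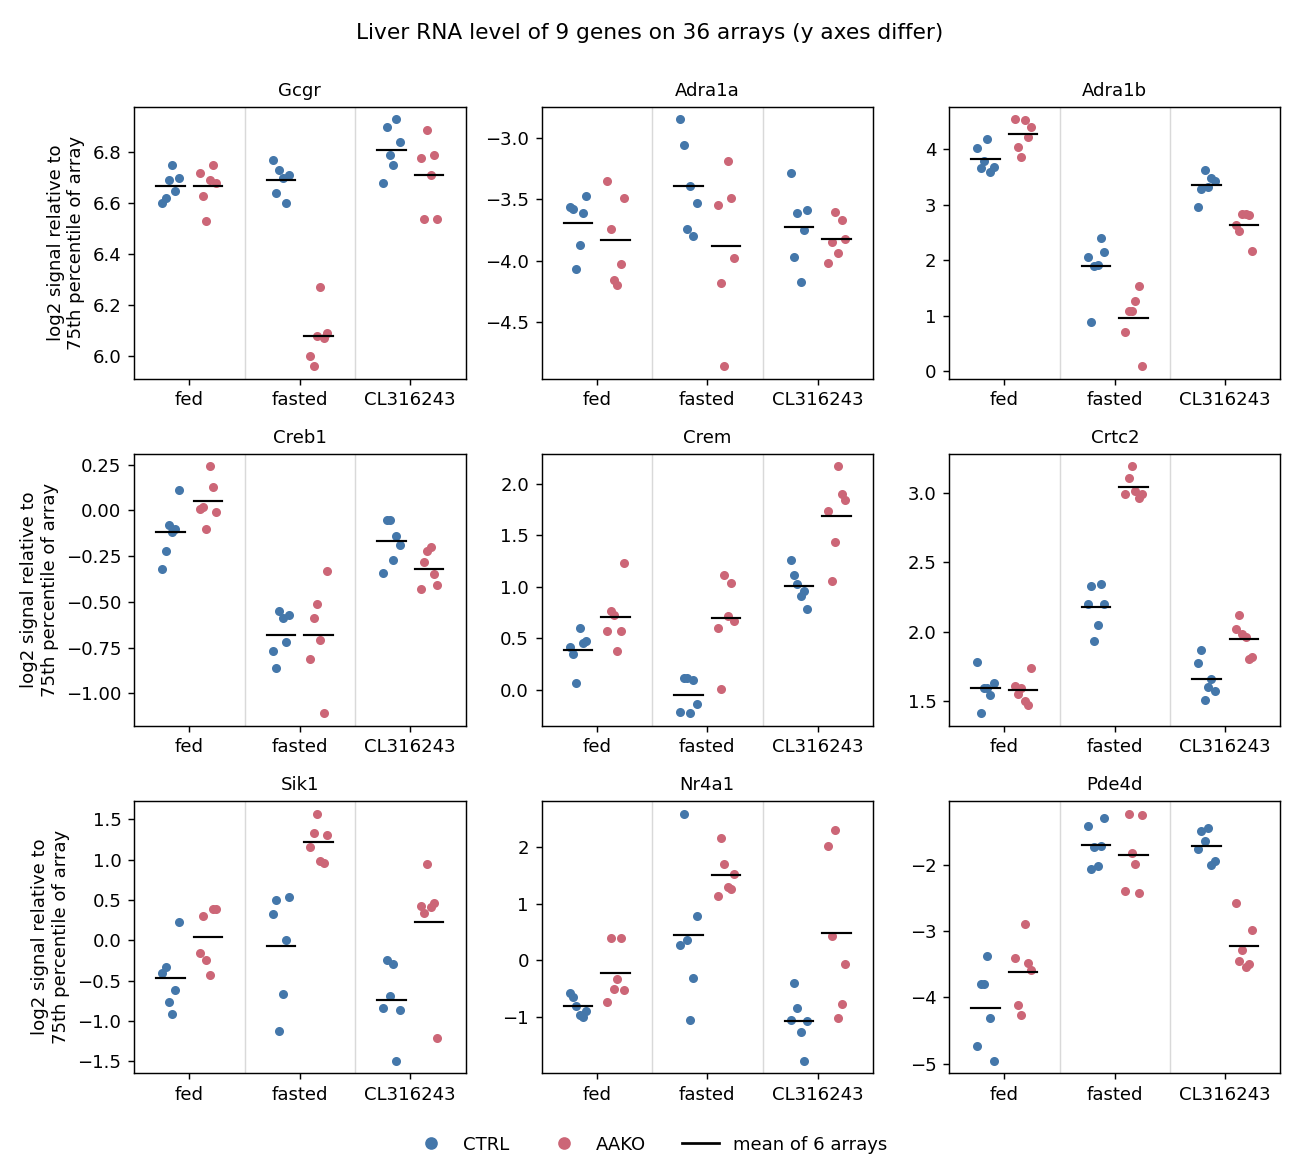
Level of each of the 9 genes on every array, on the log2 scale and scaled to each array's 75th percentile, for CTRL (blue) and AAKO (red) mice that were fed, fasted or given CL316243; the bar is the mean of 6 arrays, and each panel has its own axis. AAKO fasted arrays lie apart from all others for Gcgr (5.96 to 6.27) and Crtc2 (2.96 to 3.19), and the Pde4d arrays of AAKO mice given CL316243 (−3.54 to −2.58) lie below those of CTRL mice (−2.01 to −1.44).

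Gcgr encodes the glucagon receptor and was read by 1 probe, at chr11:120400221-120400280 (mm9, plus strand). Its level was nearly constant over 5 of the 6 groups. In CTRL it ran from 6.6 to 6.75 when fed (median 6.67), from 6.6 to 6.77 when fasted (median 6.7) and from 6.68 to 6.93 after CL316243 (median 6.82). In AAKO it ran from 6.53 to 6.75 when fed (median 6.69) and from 6.54 to 6.89 after CL316243 (median 6.75), but from 5.96 to 6.27 when fasted (median 6.08). Every AAKO fasted array was thus below every other array of the study.

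The AAKO fasted livers were lower in Gcgr than CTRL fasted livers by 0.61 ± 0.06 (SE, n = 6 and 6; 1.53-fold; limma adjusted p = 1.13e-09). The difference was −0.64 within wash batch 1 and −0.59 within wash batch 2. In CTRL the fasting difference was 0.02, with a 95% interval of −0.1 to 0.15, and the response differed between genotypes by −0.61 ± 0.09 (adjusted p = 2.26e-06). After CL316243 the genotype difference was −0.1 (−0.23 to 0.02), not called, and it differed from that in fasted mice by −0.51 ± 0.09 (adjusted p = 3.48e-05).

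Adra1b encodes the alpha 1B adrenergic receptor, the main alpha 1 receptor of mouse liver, and was read by 1 probe at chr11:43588814-43588873 (mm9, minus strand). Fed CTRL livers lay between 3.59 and 4.19 (median 3.73) and fed AAKO livers between 3.86 and 4.54 (median 4.32). Fasted CTRL livers lay between 0.89 and 2.41 (median 1.99) and fasted AAKO livers between 0.09 and 1.54 (median 1.08). After CL316243 the levels were 2.96 to 3.63 in CTRL (median 3.37) and 2.16 to 2.83 in AAKO (median 2.72). Fed livers were highest, CL316243 livers intermediate and fasted livers lowest in both genotypes; of these steps, fed and CL316243 overlapped in CTRL.

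Adra1b was lower in fasted than in fed livers, without overlap in either genotype. The difference was 1.93 ± 0.21 in CTRL (3.82-fold, limma adjusted p = 4.34e-09) and 3.31 ± 0.21 in AAKO (9.91-fold, adjusted p = 7.76e-15). The 2 responses differed by −1.37 ± 0.29 (adjusted p = 0.000402), by −1.73 within wash batch 1 and by −1.02 within batch 2, where the difference was not called (adjusted p = 0.124). After CL316243 Adra1b was lower than in fed livers by 1.63 ± 0.21 in AAKO (limma adjusted p = 3.41e-07). The CTRL difference of −0.47 was not called (adjusted p = 0.0964), and these responses differed by −1.16 ± 0.29 (adjusted p = 0.00767). In fasted livers AAKO was lower than CTRL by 0.93 ± 0.21 (adjusted p = 0.000351). With CL316243 it was lower by 0.71 ± 0.21, without overlap (adjusted p = 0.0104).

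The fasted genotypes overlapped in Adra1b through CTRL fasted replicate 2, at 0.89; without it the genotype difference was −1.14 and the CTRL fasting response −1.73. By wash batch, the fasted genotype difference was −1.4 in batch 1 and −0.45 in batch 2, where it was not called (adjusted p = 0.264). The CL316243 genotype difference was −0.82 in batch 1 and −0.51 in batch 2 (adjusted p = 0.402). The difference between genotypes in the CL316243 response was −1.15 and −1.08 and was called in neither batch alone. AAKO CL316243 replicate 6, the array with the muscle signal, was the lowest of its group, and without it the genotype difference was −0.62 (adjusted p = 0.0333).

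Adra1a, the alpha 1A receptor, was weakly measured. Its brightest probe, at chr14:67346728-67346787 (mm9, plus strand), was well above background on all 36 arrays, and the other on none. Group medians ran from −3.89 in fed AAKO to −3.46 in fasted CTRL. Fasted CTRL livers lay between −3.8 and −2.85 and fasted AAKO livers between −4.86 and −3.19. The groups overlapped, and the AAKO mean was lower by 0.48 ± 0.14 (limma adjusted p = 0.00516); it was −0.65 within wash batch 1 and −0.31 within batch 2, where it was not called (adjusted p = 0.158). No other comparison called Adra1a, and the fed and CL316243 genotype differences were −0.13 (−0.42 to 0.15) and 0 (−0.29 to 0.29).

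Creb1 encodes CREB. Its brightest probe, at chr1:64648353-64648412 (mm9, plus strand), was lower in fasted livers of both genotypes. Fed livers lay between −0.32 and 0.11 in CTRL (median −0.11) and between −0.1 and 0.24 in AAKO (median 0.02). Fasted livers lay between −0.86 and −0.55 in CTRL (median −0.66) and between −1.11 and −0.33 in AAKO (median −0.65). No fasted array reached the fed arrays of its genotype. The CL316243 levels were −0.34 to −0.05 in CTRL (median −0.17) and −0.43 to −0.2 in AAKO (median −0.31).

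Fasted livers were lower than fed livers in Creb1 by 0.55 ± 0.09 in CTRL (limma adjusted p = 6.36e-06) and by 0.72 ± 0.09 in AAKO (adjusted p = 2.12e-08). The genotype difference in fasted livers was 0, with a 95% interval of −0.18 to 0.18. At the brightest probe, CL316243-treated AAKO livers were lower than fed ones by 0.38 ± 0.09 (limma adjusted p = 0.00162). The CTRL difference was −0.05 (−0.23 to 0.13), and the test between these responses did not pass (−0.32, adjusted p = 0.102). The AAKO effect was −0.22 and not called within wash batch 2 (adjusted p = 0.388).

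The probes of Creb1 did not all behave alike. Its name is on 6 probes, 5 of them tested. Probes 2 and 4 fell with fasting, by 0.63 and 0.45 in CTRL and by 0.8 and 0.74 in AAKO. Probe 5 fell by 0.61 in CTRL, but in AAKO its difference was −0.05, and it was higher in AAKO than in CTRL fasted livers by 0.58 ± 0.14 (adjusted p = 0.000917). Probe 3, the farthest upstream of the 5, was also higher in AAKO fasted livers, by 0.67 ± 0.19 (adjusted p = 0.00338), with CTRL fasted replicate 3 missing because its spot carried an outlier mark. With CL316243, where the brightest probe was not called in CTRL, probes 2, 4 and 5 were lower than in fed CTRL livers by 0.25 (adjusted p = 0.0459), 0.66 (adjusted p = 0.0052) and 0.45 (adjusted p = 0.0176). The same probes were lower in AAKO by 0.32, 0.92 and 0.4. Statements on Creb1 are therefore statements on a probe. The mean of the probes gave 0.07 for fasted against CL316243-treated AAKO livers, where the brightest probe gave −0.35 (adjusted p = 0.00129).

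Crem encodes activators and, from an internal promoter, the inducible repressor ICER, all of which bind CREB sites. Its brightest probe lies at chr18:3267671-3267730 (mm9, minus strand). Levels in CTRL were 0.07 to 0.6 when fed (median 0.44), −0.23 to 0.11 when fasted (median −0.03) and 0.78 to 1.26 after CL316243 (median 1). In AAKO they were 0.38 to 1.23 when fed (median 0.65), 0.01 to 1.12 when fasted (median 0.7) and 1.06 to 2.17 after CL316243 (median 1.79). The medians were highest after CL316243 in both genotypes.

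Crem was higher after CL316243 than in fed livers by 0.61 ± 0.16 in CTRL, without overlap (limma adjusted p = 0.00495). In AAKO it was higher by 1 ± 0.16, or 2-fold (adjusted p = 1.27e-05). Within experiment 1, fasted CTRL livers were lower at this probe than CL316243-treated ones by 1.05 ± 0.16, without overlap (limma adjusted p = 3.44e-06). Fasted AAKO livers were lower by 1.02 ± 0.16, with overlap (adjusted p = 1.99e-06). In fasted livers AAKO exceeded CTRL by 0.74 ± 0.16 (adjusted p = 0.000242). After CL316243 the excess was 0.7 ± 0.16 (adjusted p = 0.00135), and the arrays overlapped in both conditions. At this probe neither test of the difference in response between genotypes passed. It was 0.42 with fasting (adjusted p = 0.15), and 0.39 for the response to CL316243 (adjusted p = 0.325). Within a single wash batch the CL316243 genotype difference was 0.64 and 0.78, called in neither, and the fasted one 0.58 (adjusted p = 0.0801) and 0.9 (adjusted p = 0.00581). The fall of Crem in fasted CTRL, 0.44 ± 0.16 (adjusted p = 0.0253), was lost on leaving out any of 3 arrays: CTRL fasted replicate 1 or 4, or CTRL fed replicate 4 (−0.39 each).

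Upstream probes of Crem differed from the brightest one with fasting. Probe 2, just downstream of probe 1, was lower in fasted CTRL livers by 0.49 (adjusted p = 0.043). Probe 3, at chr18:3294679-3294738 and thus farther 5′, rose with fasting instead, by 0.57 ± 0.19 in CTRL (adjusted p = 0.0172) and by 1.41 ± 0.19 in AAKO (adjusted p = 1.42e-07). With CL316243 its difference was −0.01 in CTRL, and it rose by 0.8 in AAKO (adjusted p = 0.00191). Probe 4, the farthest upstream and split between exons, was above background on 28 of 36 arrays, on all 6 in each stimulated AAKO group, on 3 in fasted CTRL and on 5 in CL316243-treated CTRL. In fasted livers it was at least 2.19-fold higher in AAKO than in CTRL (adjusted p = 1.09e-05). After CL316243 it was at least 1.97-fold higher (adjusted p = 0.000499), and in both conditions the genotypes did not overlap. A bound of this kind takes, on each array of the dimmer group, the higher of the probe's own value and the lowest signal of any probe well above background. The fasting response differed between genotypes at probe 3, by 0.84 (adjusted p = 0.0163), and was also called at probe 4 (adjusted p = 0.00392). The response to CL316243 was called as different at probe 4 (limma adjusted p = 0.0485) and not at probe 3 (0.82, adjusted p = 0.0528). At probe 2 neither difference in response passed. Probe 5 was above background on 16 of 36 arrays. It was tested only because of CL316243-treated AAKO livers, with 5 of 6 arrays above background. Its call for the response to CL316243 (limma adjusted p = 0.0396) is therefore not independent of that filter.

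The gap between probes 3 and 1 of Crem, chosen after its values were seen, is given as a description. It was −3.32 ± 0.25 in fed CTRL and −2.32 ± 0.57 in fasted CTRL (SD, n = 6). In AAKO it was −3.56 ± 0.36 when fed and −2.13 ± 0.46 when fasted.

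Crtc2 encodes the CREB coactivator that fasting hormones send to the nucleus. Its probe at chr3:90067812-90067871 (mm9, plus strand) was at 1.41 to 1.78 in fed CTRL (median 1.59) and 1.47 to 1.74 in fed AAKO (median 1.57). Fasted livers lay at 1.93 to 2.34 in CTRL (median 2.2) and at 2.96 to 3.19 in AAKO (median 3). After CL316243 the levels were 1.51 to 1.87 in CTRL (median 1.63) and 1.8 to 2.12 in AAKO (median 1.97). By median the fed and CTRL CL316243 livers were lowest and overlapped, AAKO CL316243 livers overlapped with CTRL CL316243 below and fasted CTRL above them, and fasted AAKO livers lay above all other arrays.

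Crtc2 was higher in fasted than in fed livers by 0.59 ± 0.08 in CTRL (1.5-fold, limma adjusted p = 1.59e-07) and by 1.46 ± 0.08 in AAKO (2.76-fold, adjusted p = 1.67e-16). The responses differed by 0.88 ± 0.11 (adjusted p = 2.02e-07). AAKO was higher than CTRL by 0.87 ± 0.08 when fasted (adjusted p = 6.83e-11; 0.94 and 0.8 within the wash batches). After CL316243 the genotype difference was 0.29 ± 0.08 (adjusted p = 0.00476), 0.23 and 0.35 within the wash batches and called in neither alone. The genotype difference was larger with fasting than with CL316243, by 0.58 ± 0.11 (adjusted p = 9.92e-05). Crtc2 probe 2 gave 0.79 ± 0.11 for the fasted genotypes, without overlap (adjusted p = 4.44e-07), but 0.05 (−0.17 to 0.28) after CL316243.

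Sik1 encodes a kinase that holds CRTC2 in the cytoplasm and is itself transcribed in response to cAMP. Its 1 probe lies at chr17:31981255-31981314 (mm9, minus strand). Fed livers lay between −0.91 and 0.23 in CTRL (median −0.51) and between −0.43 and 0.39 in AAKO (median 0.07). Fasted CTRL livers spread from −1.13 to 0.54 (median 0.16), and fasted AAKO livers lay above them all, at 0.96 to 1.57 (median 1.23). After CL316243 the levels were −1.49 to −0.24 in CTRL (median −0.77) and −1.21 to 0.94 in AAKO (median 0.42).

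AAKO livers were higher in Sik1 by 1.29 ± 0.29 when fasted (2.44-fold; limma adjusted p = 0.000343; 1.6 and 0.98 within the wash batches). After CL316243 they were higher by 1 ± 0.29 (adjusted p = 0.00982; 0.68, not called, and 1.47 within the batches). The overlap after CL316243 came from 1 array, AAKO replicate 6 at −1.21, the array with the muscle signal; the next lowest was 0.34, and without that array the difference was 1.26 (adjusted p = 0.000442). Fasted AAKO livers exceeded fed ones in Sik1 by 1.18 ± 0.29 (limma adjusted p = 0.000576), and the CTRL difference was 0.4 (−0.18 to 0.98). The 2 responses were not shown to differ (0.78 ± 0.4, adjusted p = 0.137).

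Nr4a1 encodes an orphan nuclear receptor and immediate early gene of the cAMP response; its probe lies at chr15:101105071-101105130 (mm9, plus strand). Fed CTRL livers were close together, from −1 to −0.59 (median −0.86), and fed AAKO livers lay between −0.74 and 0.4 (median −0.43). Fasted CTRL livers ran from −1.06 to 2.6 (median 0.31), with replicate 2 highest, and fasted AAKO livers from 1.14 to 2.16 (median 1.41). After CL316243 CTRL lay between −1.78 and −0.41 (median −1.07) and AAKO between −1.02 and 2.3 (median 0.19). In that last group replicates 1 and 3 were at 2.02 and 2.3 and no other above 0.43.

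After CL316243, AAKO was higher in Nr4a1 by 1.56 ± 0.47 (2.95-fold; limma adjusted p = 0.0138). The call was lost without AAKO replicate 3 (1.14, adjusted p = 0.0607) and within each wash batch, where the differences were 1.56 and 1.63 (adjusted p = 0.0534 and 0.329). In fasted mice the difference of 1.08 ± 0.47 was not called (adjusted p = 0.0567), but it was 1.52 without CTRL fasted replicate 2 (adjusted p = 0.00313). Nr4a1 was higher in fasted than in fed AAKO livers by 1.74 ± 0.47, without overlap (limma adjusted p = 0.00172). Wash batch 1 gave 1.95 and batch 2 gave 1.52, the latter not called. The CTRL rise of 1.26 (adjusted p = 0.0285) became 0.81 without replicate 2 (adjusted p = 0.129) and 1.19 without replicate 6 (adjusted p = 0.0559). Fasted against CL316243-treated CTRL livers gave 1.52 (adjusted p = 0.0106), and 1.07 without replicate 2 (adjusted p = 0.0508).

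Pde4d encodes a cAMP phosphodiesterase and had the largest rises of the 9 genes. Its brightest probe lies at chr13:110743427-110743486 (mm9, plus strand). Fed livers lay between −4.95 and −3.38 in CTRL (median −4.06) and between −4.27 and −2.89 in AAKO (median −3.53). Fasted livers lay between −2.06 and −1.3 in CTRL (median −1.73) and between −2.42 and −1.23 in AAKO (median −1.91). After CL316243 CTRL lay between −2.01 and −1.44 (median −1.71) and AAKO between −3.54 and −2.58 (median −3.37). CTRL livers were thus high in both stimulated states, and AAKO livers were high with fasting and near their fed level after CL316243.

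In CTRL, Pde4d rose by 2.45 ± 0.21 with fasting (5.48-fold; limma adjusted p = 7.17e-11) and by 2.44 ± 0.21 with CL316243 (5.44-fold; adjusted p = 1.74e-09). These states differed from each other by 0.01, with a 95% interval of −0.42 to 0.44. In AAKO it rose by 1.77 ± 0.21 with fasting (3.41-fold; adjusted p = 1.17e-08), while the CL316243 difference was 0.32 (−0.11 to 0.76; adjusted p = 0.271). AAKO was lower than CTRL after CL316243 by 1.58 ± 0.21, without overlap (2.99-fold; adjusted p = 1.64e-06; −1.48 and −1.62 within the wash batches). In fasted livers the genotype difference was −0.15 (−0.58 to 0.29). Cidec was also lower in AAKO than in CTRL after CL316243, by 2.71 (adjusted p = 9.51e-06), while the 4 other adipocyte markers were not called, and their part in the Pde4d difference was not tested.

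The genotypes differed in the Pde4d response to CL316243 by −2.12 ± 0.3 (limma adjusted p = 1.56e-05). The value was −2.59 within wash batch 2 and −1.6 within batch 1, where it was not called (adjusted p = 0.0712). The responses to fasting differed by −0.68 ± 0.3 (adjusted p = 0.079, not called), with 0.04 in batch 1 and −1.4 in batch 2 (adjusted p = 0.0146). The genotype difference itself was 1.43 ± 0.3 higher in fasted than in CL316243-treated livers (adjusted p = 0.00042). Without AAKO CL316243 replicate 6 the CL316243 genotype difference was −1.6, and without CTRL fasted replicate 2 the CTRL fasting response was 2.48.

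Probes 2 and 3 of Pde4d, on either side of probe 1, also responded to CL316243 less in AAKO than in CTRL, by 2.1 and 1.32 (adjusted p = 2.02e-06 and 5.81e-06). Their CTRL responses to CL316243 were 2.21 and 1.46 and their AAKO responses 0.11 and 0.14. AAKO was lower after CL316243 by 1.63 ± 0.18 (adjusted p = 6.67e-08) and 0.99 ± 0.12 (adjusted p = 3.69e-07), without overlap. In fasted livers probe 2 gave −0.1 (−0.46 to 0.27), while probe 3 was higher in AAKO by 0.5 ± 0.12 without overlap (adjusted p = 0.000895).

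Probe 4, whose upstream sequence is printed above beside that of probe 3, was different in the fasted mice. It lay between −4.56 and −2.77 in fasted CTRL (median −3.45) and between −6.26 and −4.7 in fasted AAKO (median −5.36). The corresponding levels were −4.14 to −3.24 (median −3.69) and −6.35 to −4.87 (median −5.08) after CL316243. All 6 arrays of both stimulated CTRL groups were well above background, and 3 of 6 in each stimulated AAKO group. CTRL was at least 3.48-fold higher than AAKO in fasted livers (adjusted p = 6.8e-06) and at least 2.77-fold higher after CL316243 (adjusted p = 0.000311). Of the fed arrays 4 of 6 CTRL and 3 of 6 AAKO were above background, so the responses have no exact size. Both CTRL responses were called as higher and neither AAKO response was called. The responses differed between genotypes with fasting (adjusted p = 0.00056) and with CL316243 (adjusted p = 0.00982). Probe 4 was tested only because of the stimulated CTRL groups, where it was high. Its calls between genotypes and for the responses are thus not independent of that filter.

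The 4 further probes with the Pde4d name were below background on all or all but 1 of the arrays.

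**Figure D3:**
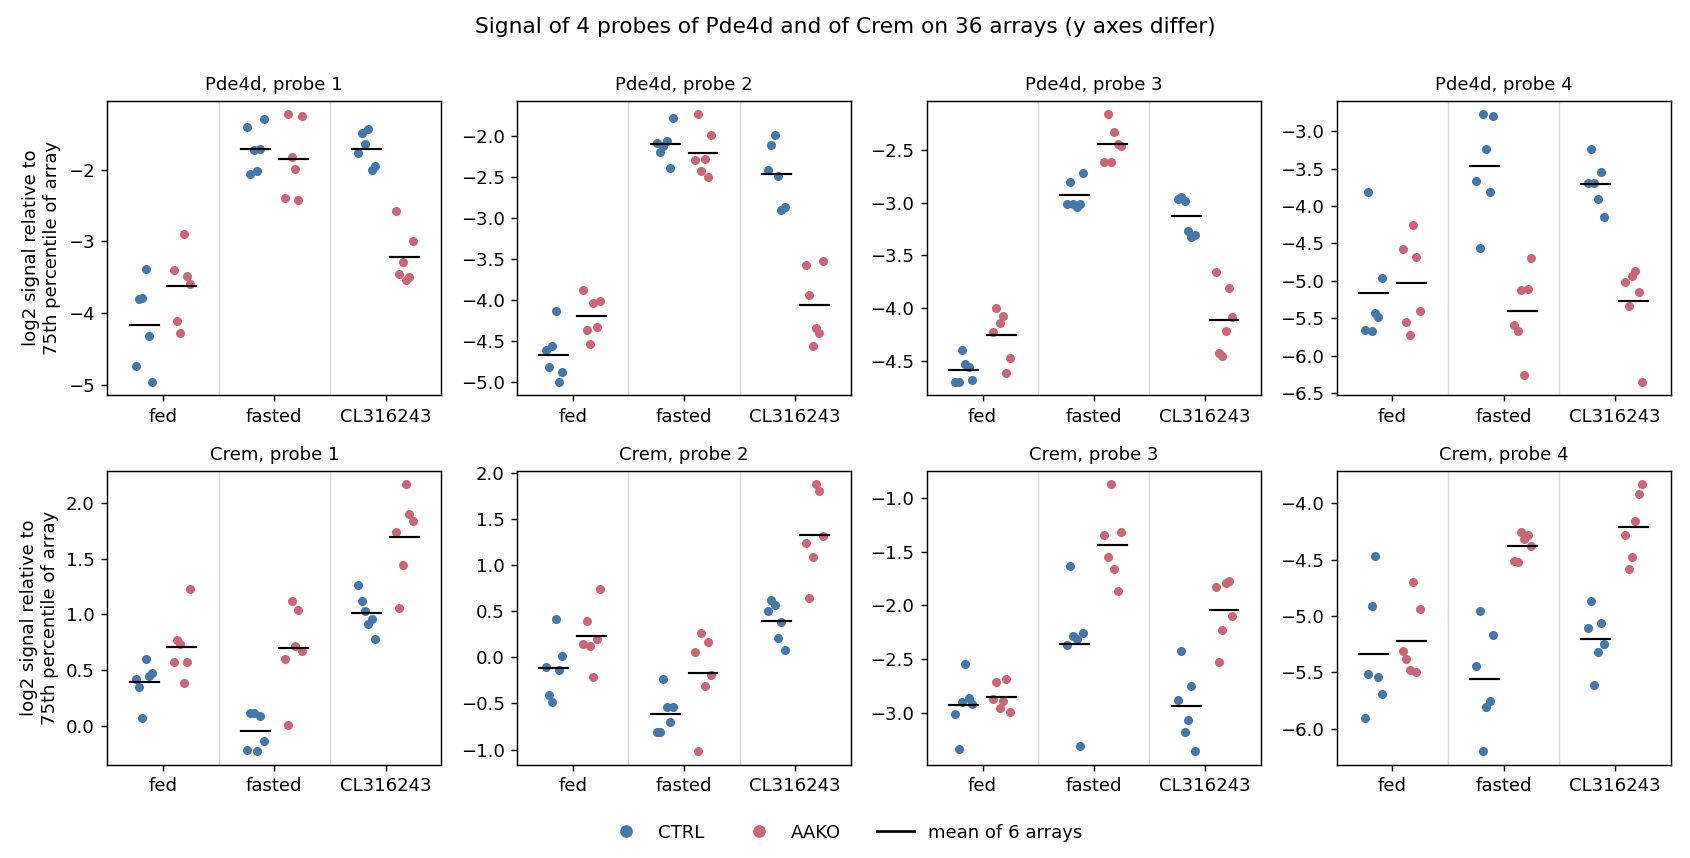
Log2 signal on every array of 4 probes of Pde4d (top row) and 4 of Crem (bottom row), numbered from brightest to dimmest, in CTRL (blue) and AAKO (red) mice by condition; bars are means of 6 arrays and axes differ. Fasted AAKO livers overlap CTRL at Pde4d probes 1 and 2, exceed them at probe 3 and lie below them at probe 4 (−6.26 to −4.7 against −4.56 to −2.77), and Crem rises with fasting at probe 3 but not at probes 1 and 2.

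The other 71 genes of a list of this pathway were counted beside the 9, of which 66 were tested (not tested were Adra1d, Adcy2, Adcy3, Adcy8 and Pkia). The list was chosen with earlier results of these data known, so its counts are a description. In fed mice limma called 0 of 66 between genotypes (8 at an unadjusted p under 0.05). In fasted mice 40 were called (60.6%), 26 higher and 14 lower in AAKO, beside 49.3% of all tested genes, with a median difference of 0.12 against −0.04 over all genes. After CL316243 19 were called (28.8%), 8 higher and 11 lower, beside 24.7%, with medians of 0.01 and 0.03. Fasted and CL316243-treated livers differed for 20 genes in CTRL (30.3%, beside 36.8% of all genes) and 44 in AAKO (66.7%, beside 59.9%).

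Of 16 tested genes known to be induced by cAMP, 10 were higher and 0 lower in fasted AAKO than in fasted CTRL livers (median 0.98), beside 21.3% higher and 28% lower of all genes. After CL316243 5 were higher and 0 lower (median 0.27), beside 13.4% and 11.3%. These counts are not a test of the class, since its genes were chosen with earlier results of these data known. Btg2, an immediate early antiproliferative gene, was higher in AAKO after CL316243 by 1.88 ± 0.36 (limma adjusted p = 0.000173), at 1.22 to 2.03 against −1.09 to 0.81. When fasted, Btg2 lay at 1.97 to 3.75 in AAKO against −1.69 to 1.55 in CTRL. In fasted against CL316243-treated livers, 6 were higher and 1 lower in CTRL, beside 19.2% and 17.6% of all genes, and 11 higher and 1 lower in AAKO, beside 26.2% and 33.8%. Pdk4, a kinase that restrains pyruvate oxidation, was higher by 4.02 ± 0.48 in CTRL (adjusted p = 7.66e-08) and by 4.38 ± 0.49 in AAKO (adjusted p = 2.96e-09). Gadd45b, a stress-induced gene, was higher in fasted CTRL livers by 3.23 ± 0.32 (limma adjusted p = 1.74e-09). In AAKO Gadd45b lay apart too, at 2.21 to 2.98 when fasted and −2.2 to −0.98 after CL316243.

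Of 7 other receptors, 6 were called by limma between fasted genotypes, 4 higher and 2 lower in AAKO, beside 49.3% of all genes. Adra2a, 1 of the 4 higher, was tested only because of the fasted AAKO arrays. Its place in this count is thus not independent of its being high there. After CL316243 0 were called (1 at an unadjusted p under 0.05), beside 24.7%. Adra2a, the alpha 2A receptor coupled to Gi, was above background on all 6 fasted AAKO arrays (−4.38 to −1.02), on 3 of 6 in fasted CTRL and on none in the 4 other groups. With the bound described for Crem, it was at least 5.28-fold higher in fasted AAKO than in fasted CTRL livers (limma adjusted p = 4e-06). Against CL316243-treated AAKO livers it was at least 6.82-fold higher (adjusted p = 3.93e-10). Adrb3, the receptor of CL316243, was at −1.7 to 1.06 in fasted CTRL and −2.58 to −1.38 in fasted AAKO livers. It was lower in fasted AAKO by 1.86 ± 0.31 than in fasted CTRL (adjusted p = 8.58e-06) and by 2.71 ± 0.31 than in CL316243-treated AAKO (adjusted p = 6.49e-09). Glp1r, the GLP-1 receptor, was at least 1.91-fold higher in CL316243-treated than in fasted AAKO livers (adjusted p = 0.00195), with 6 and 2 arrays above background.

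Among the adenylyl cyclases, which make cAMP, 3 of 7 were called between fasted genotypes (1 higher, 2 lower), beside 49.3% of all genes, and 4 of 7 after CL316243 (1 higher, 3 lower), beside 24.7%. The higher one was Adcy1 in both. Adcy1 was tested only because of the AAKO groups. Its place in these counts and its calls are thus not independent of its being high there. Adcy1 lay at −3.63 to −2.6 in fasted AAKO against −8.01 to −5.8 in fasted CTRL, and at −2.42 to −1.58 against −6.67 to −4.7 after CL316243. With 1 and 3 of the 6 CTRL arrays above background, AAKO was at least 6.45-fold higher when fasted (limma adjusted p = 5.53e-07) and at least 11.1-fold higher after CL316243 (adjusted p = 8.08e-07). In fed mice Adcy1 lay at −6.77 to −2.7 in AAKO against −7.9 to −4.87 in CTRL, with 5 and 1 arrays above background. The fed genotypes were not called as different (limma adjusted p = 0.163). For Adcy1 the responses of the genotypes, fasting or CL316243 against fed, were not called as different either. Adcy6, a calcium-inhibited cyclase, was lower in AAKO after CL316243 by 1.02 ± 0.1, without overlap (adjusted p = 6.53e-09).

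Of 10 other phosphodiesterases, 5 were higher and 1 lower in fasted AAKO than in fasted CTRL, beside 21.3% and 28% of all genes. After CL316243 4 were lower and 0 higher, beside 11.3% and 13.4%. The 1 lower with fasting was Pde4a, the relative of Pde4d, by 1 ± 0.17 without overlap (limma adjusted p = 1.45e-05). The remaining classes were called as follows between fasted genotypes, beside the same shares of 21.3% higher and 28% lower: 1 of 7 G proteins higher and 3 lower, 3 of 10 kinases and effectors higher and 4 lower, 1 of 6 CREB factors higher and 2 lower, and 1 of 3 kinases upstream of CRTC higher.

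**Figure D4:**
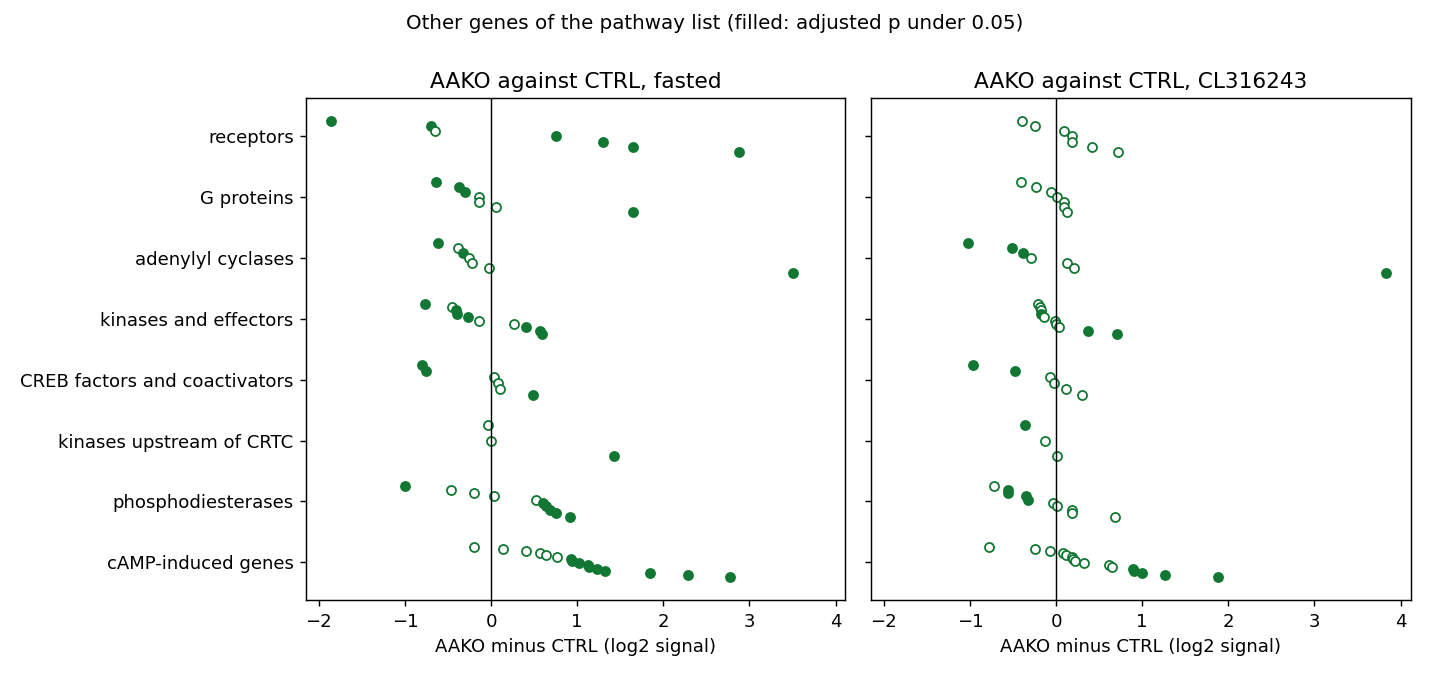
Difference between AAKO and CTRL mice in log2 signal for the 66 other tested genes of the pathway list, 1 point per gene, by class (rows) in fasted (left) and CL316243-treated livers (right), filled where adjusted p was under 0.05. The filled points of the cAMP-induced genes all lie right of 0 in both panels (10 when fasted and 5 after CL316243). The list was chosen with earlier results of these data known. Points are fitted differences, which have no exact size where a group is not above background on all its arrays, as for Adcy1 in CTRL.

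The genes most like each member in pattern were taken by the root mean square difference of the 6 centred group means, for the 6 members whose group means span at least 1. For Crtc2 they were Usp19 (0.029), Dis3 (0.042) and Zfp358 (0.049). For Adra1b they were Gm11967 (0.114), Slc22a30 (0.153) and Adgrv1 (0.158), and for Sik1 Pfkp (0.115), Nedd9 (0.121) and Fst (0.124). Nr4a1 was nearest to Asprv1 (0.162), Slpi (0.227) and Nfil3 (0.236), and Pde4d to Slc25a30 (0.131), AV000840 (0.178) and Gm5602 (0.232). The nearest to Crem were 2 intergenic transcripts named by position (0.116 and 0.131) and 3110082I17Rik (0.136). Each match rests on 6 group means from the same arrays and is a description.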

How the data were processed

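Liver RNA of 36 mice was read on 1-colour Agilent arrays of design 074809, with probe coordinates on mm9. Per the file headers, Agilent Feature Extraction 10.10.1.1 made the spot intensity values; the processed signal intensity had its background and spatial trends removed within the array. The authors also deposited log2 values for 36898 probes, with medians of 6.88 to 7.01 per group. The columns each correlated best with their own array (r between 0.99944 and 0.9997), so their direction is that of the signal and genes were not centred; the normalization is not given in the sources used here, though the submitters' processing notes name limma. These values served as an alternative.

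Values are log2 of the processed signal after subtracting the log2 75th percentile of all spots that are not controls, array by array. Spots with an outlier mark (2701, 0.127%) were left out, none was saturated, and repeated spots were averaged. RefSeq accessions named 32994 of 56605 probes and changed 1535 symbols. A gene was represented by its brightest probe and tested if some group had 5 or 6 of its 6 arrays well above background. Limma 3.58.1 (R 4.3.3; package data.table, version 1.17.8) fitted 6 group means and wash batch over all 36 arrays, with eBayes and two-sided p-values adjusted by Benjamini-Hochberg over 24251 genes per contrast; further probes of a gene were taken from the same fit over 36550 probes. The fit was tested on simulated data. Arrays of a group correlated at 0.9777 to 0.9948, and no 2 held identical values. The number of arrays limits the precision.

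The 9 genes, the pathway list of 80 genes and the 62 cell type markers (61 on the array) were chosen with earlier results of these data known. Named beside the 9 genes were list genes called with a difference of at least 1 in a genotype contrast or in fasted against CL316243 (the 2 highest and 2 lowest of each), and the 3 genes most alike. Promoters and motifs are from RefSeq, GRCm38.p6. Alternatives covered the background correction, normalization, probe choice, filter, wash batch, slide, replicate block and leaving out each array.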

Additional observations from a re-analysis of the deposited data

Results flagged for a closer look

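Arrays lying apart from the rest of their group by Dixon's criterion were sought in 54 sets of 6 arrays (9 genes in 6 groups), where chance gives about 1 in 20, and 2 were found. Adra1b was at 0.89 in CTRL fasted replicate 2, with the nearest array of the group at 1.9. Sik1 was at −1.21 in AAKO CL316243 replicate 6, with the nearest at 0.34. Both arrays also stood apart over other genes, the first on the first principal component and the second in its muscle markers. Their part in these values was not tested.

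Of 27 tests of a difference between genotypes in response (9 genes, 3 contrasts), limma called 8. Of all tested genes, 33.9% were called for fasting against fed, 10.9% for CL316243 against fed and 32.3% for fasting against CL316243. Beside these shares, the count of 8 is not a result about this set. For fasting against fed, the AAKO response minus the CTRL response was −0.61 for Gcgr, −1.37 for Adra1b and 0.88 for Crtc2. For CL316243 against fed it was −1.16 for Adra1b and −2.12 for Pde4d. The genotype difference in fasted mice minus that in CL316243-treated mice was −0.51 for Gcgr, 0.58 for Crtc2 and 1.43 for Pde4d. Those 3 lie within experiment 1, and the other 5 hold the fed arrays of experiment 2.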

How the results depend on the processing

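Of 108 tests (9 genes, 12 contrasts), 51 were called, and 42 of these kept sign and call under all alternatives run on both wash batches, array omissions aside. The authors' table kept 49 and added 7, normexp background correction kept 51 and added 3, quantile normalization kept 51 and added 2, and fitting only the groups compared kept 48 and added 2. The mean of a gene's probes kept 46 and added 4; it gave 1 called gene for CL316243 against fed in CTRL in place of 2, 5 for the genotype by fasting interaction in place of 3, and turned Creb1 in fasted against CL316243-treated AAKO livers to 0.07. With fewer arrays, wash batch 1 alone kept 39 calls and wash batch 2 alone 34. After CL316243 the genotypes then differed in 2 genes in batch 1 and 2 in batch 2, in place of 6; CL316243 against fed gave 1 and 1 in CTRL, in place of 2, and 2 in AAKO in batch 2, in place of 4; the CL316243 interaction gave 0 and 1, in place of 2. In batch 1 that interaction had adjusted p = 0.0712 for Pde4d and 0.108 for Adra1b by limma. Values that changed sign with neither setting called numbered 37 of 1296.

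Counts over all genes changed by more than 1.5 times in a single wash batch: between genotypes after CL316243, 3014 and 1562 genes in place of 6002, and in fasted mice 7804 in batch 2 in place of 11963. The 19 fed calls became 3 when only the fed groups were fitted, 1 and 0 in the batches (limma; 1644 at an unadjusted p under 0.05 with both), and 8 to 36 without single fed arrays. Fasting against fed in CTRL gave 5920 in batch 1 in place of 10503, and fasted against CL316243 in CTRL 4544 in place of 8929. CL316243 against fed gave 2127 and 1602 in CTRL in place of 5644, and 4717 and 2280 in AAKO in place of 7606. The tests of a difference in response gave 5149 and 3127 for fasting in place of 8223, 460 and 476 for CL316243 in place of 2635, and 4895 and 3087 for fasting against CL316243 in place of 7843. The authors' table moved the median of all genes in fasted against CL316243-treated AAKO livers from −0.08 to 0.05.

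Replicate numbers are shared by the groups in the labels but did not pair arrays: the deviations of same-numbered arrays correlated at −0.001 on average, 16 of 90 pairs exceeded 0.1, and 6 of 36 arrays had their best partner under their own number. With the replicate block, 51 calls were kept and 3 added, among them Nr4a1 between fasted genotypes (adjusted p = 0.0335).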
